A study of Mus musculus with 14 samples.

Results

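Fibroblast cultures grown out of dorsal skin were compared with cultures grown out of lung, both from mice labelled Rel -/-. The comparison holds 7 of the 14 libraries of the study. By title, 3 are skin (numbers 18, 19 and 20) and 4 are lung (numbers 7, 8, 9 and 10). Libraries were put into groups by title, but the comparison and the gene lists were chosen with earlier results of these data known. The mice were described as male, of strain C57BL/6J and 8 to 10 weeks old, and both alleles of Rel are named as null in every tissue, so the deletion is shared by both groups and is not limited to fibroblasts. Cells were left unstimulated on plastic and scraped for RNA at day 14. The remaining 7 libraries come from wild-type C57BL/6J mice (2 of skin, 5 of lung) and enter as the second genotype in which skin can be set against lung.

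Tissue and preparation cannot be told apart. Skin was cut into pieces of 1 cubic millimetre and taken out of the dish at day 7, whereas lung was chopped into pieces of about 5 mm, for which no removal is described. The outgrowths were not sorted, so a dish can hold any cell that migrated from the tissue. In such bulk libraries fewer cells of a type and less RNA per cell cannot be told apart. Whether each library is its own animal is not stated. The p-values rest on the spread among libraries, and that spread may be technical.

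Fibroblasts keep a record of where in the body they arose. Homeobox genes of the HOX clusters are switched on in nested domains along the body axis, and adult fibroblasts in culture go on expressing the combination of their site. T-box, Forkhead and basic helix-loop-helix factors add the distinction between lung mesenchyme and dermis. Rel encodes c-Rel, a subunit of the NF-kappaB family best known from lymphocytes, where it drives cytokine and survival genes. Explant dishes also carry other residents of the tissue: epidermis, skin muscle, alveolar macrophages, mesothelium.

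Library totals of the 7 ran from 12780350 to 28686474 counts. Reads of the targeted gene were not spread as the labels would have it. Rel (ENSMUSG00000020275, GRCm38 chromosome 11, 23736847-23770970) had 1 count in skin 18 (0.0334 CPM, counts scaled to a common library size after TMM factors), but 148 counts in skin 19 (9.08 CPM, exact 95% Poisson interval 7.68 to 10.7) and 121 in skin 20 (8.72 CPM). Lung 7 had 1 count, and lung 8, 9 and 10 read 4.34, 1.44 and 4.03 CPM, while wild-type skin read 11.4 and 9.28 CPM. Rps3a3 and Tpm3-rs7, copies of other genes chosen from these data because they part the genotypes in lung, also placed skin 19 and 20 apart: Rps3a3 read 318 CPM in skin 18 and 73.2 to 275 CPM in the 4 lung libraries, but 1.60 and 0.433 CPM in skin 19 and 20. Lung 7 stood apart in having 11.5% of the genes expressed in the other lung libraries at 0 counts, against 3.37% in skin 18 and at most 0.27% in the other 5. Lung 10 is lung by title and source, but its treatment field names skin. It had 0 counts of Hoxc8, Hoxc9, Zic1 and Mylpf, and 119 CPM of Tbx4. The mice are described as male, but counts of Xist, which female cells transcribe from their silenced X, reached 1646 for wild-type lung 1, 1949 for wild-type skin 22 and 12 for Rel-null lung 10. The other 11 libraries had at most 2. Directions below follow the titles, and the word Rel-null stands for the label.

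All 7 libraries read fibroblast genes at high levels. The summed level of 13 general fibroblast genes (collagens I and III, Pdgfra, Pdgfrb, Vim, Dcn, Lum and others) was 15731 to 33878 CPM in skin and 31460 to 87696 CPM in lung. Of these 13, the surface glycoprotein Thy1 was higher in skin, Col3a1 was higher in lung, and 11 did not pass. Their median log2 difference was -0.27.

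Between skin and lung cultures 829 of 16408 tested genes (5.05%) differed at an adjusted p under 0.05. In skin 299 were higher (1.82% of those tested) and in lung 530 were higher (3.23%). The differences were large: 637 of the 829 were at least 4-fold, 220 toward skin and 417 toward lung, and the median log2 fold change over all tested genes was -0.01. Of the genes higher in skin, 91 had 0 counts in every Rel-null lung library, and 60 of those higher in lung had 0 counts in every Rel-null skin library. Protein-coding genes made up 817 of the 829. The count depends on which libraries are used. Without any 1 of the 7 it ran from 139 to 507 toward skin and from 271 to 816 toward lung: skin 20 gave the lowest pair (139 and 271), skin 19 gave 166 and 330, skin 18 gave 189 and 324, lung 8 gave 176 and 374, lung 9 gave 173 and 411, and lung 7, the library with most genes at 0, gave the highest pair. Without skin 19 and 20, which leaves skin 18 as a lone library assumed to vary like the other groups, 75 and 334 genes were called.

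Hoxc6, Hoxc8 and Hoxc9 of the HOX C cluster were higher in skin and at or near 0 counts in lung. Hoxc8 (chromosome 15, 102990607-102994111) read 42.6, 74.1 and 65.8 CPM in skin 18, 19 and 20, and 0, 1.00, 0 and 0 CPM in lung 7, 8, 9 and 10. The lone positive lung library does not come near the lowest skin library (log2 fold change 7.85 ± 1.34 SE, adjusted p = 0.00211, and 13.24 without lung 8). Hoxc9, next to it on the chromosome, read 18.7, 17.8 and 18.6 CPM in skin with 0 counts in lung, at least 490.4-fold higher against 3 counts over the lung group (adjusted p = 0.00254). Skin libraries differed from each other by very little here. Hoxc6 read 24.9, 38.5 and 39.1 CPM in skin and had 3 counts in lung, all in lung 10, a ratio of 852 (95% counting interval 291 to 4136, adjusted p = 0.0037, log2 12.42 without lung 10). The paralogue Hoxa5 (chromosome 6), needed for lung and airway development, went the other way, with 2.47, 3.01 and 4.33 CPM in skin and 33.2, 33.3, 43.2 and 54.1 CPM in lung (-3.65 ± 0.83, adjusted p = 0.0154). The 2 tissues did not overlap for Hoxa5, but its call ended without skin 18, 19 or 20 (adjusted p 0.0784, 0.0772 and 0.0596).

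Of 39 HOX genes in the annotation, 26 passed the filter on low counts, and these 4 were the ones called (3 toward skin, 1 toward lung). The more 5' members read only in skin did not pass. Hoxc10 read 3.54, 4.97 and 1.15 CPM in skin and Hoxa9 6.22, 0.246 and 1.44 CPM, both with 0 counts in Rel-null lung (at least 86.1-fold and 70.4-fold higher, adjusted p 0.118 and 0.0962). Hoxc13, a gene of hair and nail, read 0.0334, 5.52 and 8.36 CPM in skin and 0 counts in lung (at least 92.1-fold, adjusted p = 0.0535, and 0.044 without skin 18). Other C cluster genes were read in both tissues and overlapped: Hoxc4 read 1.77 to 3.75 CPM in skin and 0.948 to 4.49 CPM in lung (0.24 ± 1.06, adjusted p = 0.961). Hoxc5 read 10.7 to 14.9 CPM in skin and 11.7, 1.64, 1.26 and 0 CPM in lung (1.88 ± 1.73, adjusted p = 0.662). Likewise Hoxb4 read 9.52 to 31.4 CPM in skin and 16.9 to 24.7 CPM in lung, which overlap. The median log2 difference of the 26 was -0.21, and 8 did not overlap toward skin and 2 toward lung. Over all tested genes such non-overlap was found for 11.6% toward skin and 8.54% toward lung.

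Of 12 transcription factors of lung mesenchyme, 5 were called higher in lung and none was called higher in skin. The values of 11 pointed to lung and of 1 to skin, with a median log2 difference of -4.72. Tcf21 (chromosome 10, 22817281-22820174), which patterns lung and kidney mesenchyme, had 0 counts in all 3 skin libraries and read 2.55, 33.0, 13.7 and 20.0 CPM in lung, at least 346-fold lower in skin (adjusted p = 0.000364). Lung 7 is the low one of the 4. Tbx4 (chromosome 11, 85886422-85916097), the T-box factor that marks the lung bud, read 0, 0.798 and 3.10 CPM in skin and 9.34, 51.1, 37.5 and 119 CPM in lung (-5.43 ± 1.26, adjusted p = 0.018). Tissues did not overlap, yet the size moved to -7.17 without skin 20, -4.74 without skin 18 and -4.69 without lung 10, and the call ended without skin 19 (adjusted p = 0.0921). Osr1 read 0, 1.47 and 1.95 CPM in skin and 23.5 to 53.2 CPM in lung (-4.94 ± 1.05, adjusted p = 0.0107, from -4.30 without skin 18 to -5.57 without skin 20). In a fit of the 7 Rel-null libraries alone neither Osr1 (-4.93, adjusted p = 0.065) nor Tbx4 (-5.42, adjusted p = 0.0746) was called. Gata6 (-2.21, adjusted p = 0.0226) and Tbx2 (-4.68, adjusted p = 0.043) were the other members called in the fit of all 14 libraries. Neither was called with the 7 Rel-null libraries alone, and Tbx2 was also not called without wild-type lung 1, 3, 5 or 23. Gata6 lost its call without any 1 skin library or lung 8 (0.0779 to 0.108), and Tbx2 without skin 18 or 19 or lung 8, 9 or 10 (0.0628 to 0.162), while its value was -6.77 without skin 20 and -4.02 without skin 18. Foxf1, the Forkhead factor of splanchnic mesenchyme, read 1.91, 4.73 and 3.10 CPM in skin and 15.1 to 42.5 CPM in lung, and missed the threshold (adjusted p = 0.0667, but 0.0466 without lung 7). The list had 4 calls without skin 19 and 20, and 7 without lung 7.

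Dermal factors showed the opposite order. Of 16, 14 were tested, 4 were higher in skin and 1 in lung, with a median log2 difference of 2.41. Twist2 (chromosome 1, 91801461-91848028), a regulator of dermal and facial mesenchyme, read 407, 339 and 347 CPM in skin, and 0.0607, 0, 4.29 and 3.41 CPM in lung (7.54 ± 1.18, adjusted p = 0.00104, and 8.31 without lung 9). The skin values lie close together while the lung values split into a pair near 0 and a pair of a few CPM. Zic1, a zinc finger factor of dorsal mesenchyme, read 22.7, 16.3 and 36.6 CPM in skin and 0 counts in lung (at least 645-fold, adjusted p = 0.00198). Prrx1, a pan-mesenchymal factor, differed less, with 378, 566 and 567 CPM in skin and 187 to 208 CPM in lung (1.36 ± 0.28, adjusted p = 0.00912, and 0.054 without skin 20). Tbx15, a T-box factor of dorsal skin, read 57.1, 119 and 85.6 CPM in skin and 0, 0, 6.28 and 0.255 CPM in lung (5.72 ± 1.55, adjusted p = 0.0431). Its call ended without skin 18, 19 or 20 or lung 8 or 10 (adjusted p 0.0698 to 0.115), and without lung 9 the value was 9.91. Tbx15 was also not called with the 7 Rel-null libraries alone or without wild-type lung 3, 5 or 23. The member higher in lung was Trps1 (-2.22 ± 0.53, adjusted p = 0.0208), which lost its call without any 1 skin library or lung 8 or 10 (0.0555 to 0.108). The Trps1 call also ended with the 7 Rel-null libraries alone. En1, the factor of the trunk dermis that makes scars, read 18.5, 53.3 and 45.5 CPM in skin and 0, 9.08, 0.451 and 0.204 CPM in lung, and did not pass (adjusted p = 0.195, but 0.0374 without lung 8).

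**Figure D1:**
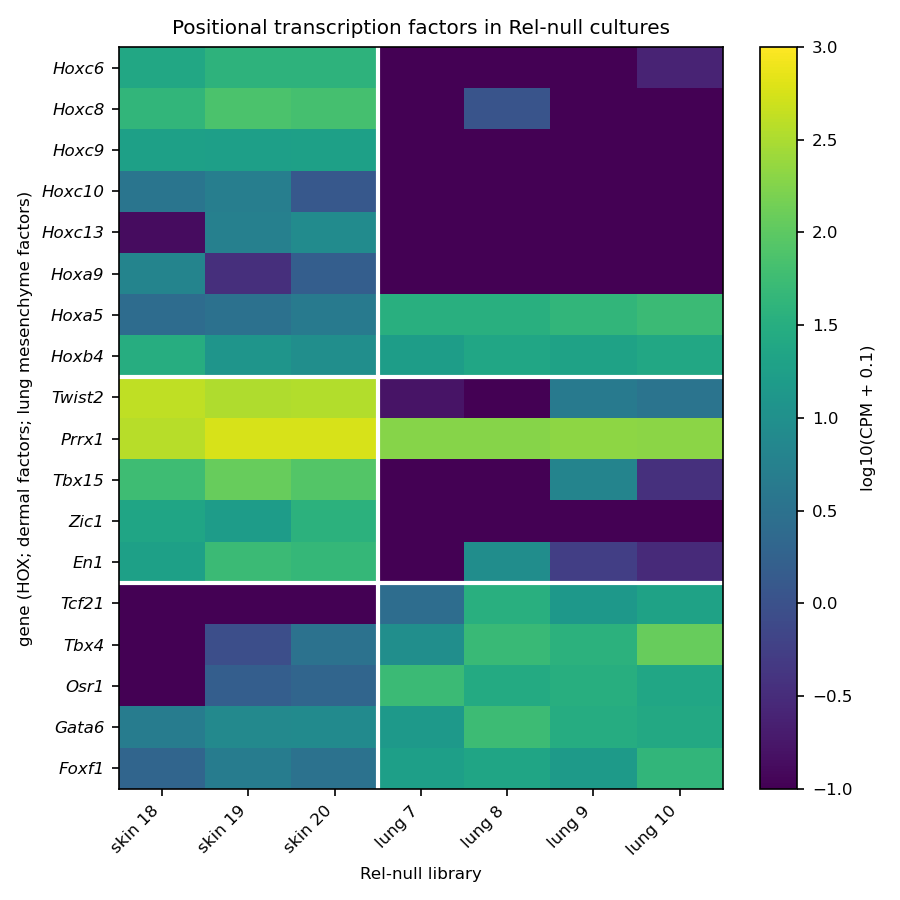
Colour gives log10(CPM + 0.1) of each positional gene (rows) in each Rel-null library (columns), with HOX genes on top, dermal factors in the middle and lung mesenchyme factors at the bottom. Hoxc9 and Zic1 are at 0 counts in all 4 lung columns and Tcf21 in all 3 skin columns, whereas Hoxb4 and Prrx1 are read in all 7.

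Keratinocyte genes gave the largest differences toward skin. Of 25 tested, 15 were higher in skin, none was higher in lung, and the median log2 difference was 8.84, or 7.61 with the 11 members at 0 counts in lung set to their bound. Krt14 (chromosome 11, 100203162-100207548), a keratin of the basal epidermal layer, read 1264, 352 and 509.5 CPM in skin 18, 19 and 20 and had 0 counts in all 4 lung libraries. That is at least 18933-fold higher (adjusted p = 1.85e-05). Its partner Krt5 read 413, 112 and 176 CPM against 0 counts, at least 6244-fold (adjusted p = 6.78e-05), and the wound keratin Krt17 read 345, 244 and 359 CPM against 0 counts, at least 8447-fold (adjusted p = 0.000162). Without skin 18, the library richest in Krt14 and Krt5, their fitted log2 values went from 16.79 to 16.06 and from 15.19 to 14.48. Lamb3, a chain of the laminin that anchors epidermis, read 109, 76.5 and 196 CPM in skin and 0.306 CPM in lung 10 alone among lung libraries (10.60 ± 1.53, adjusted p = 0.00052, and 14.32 without lung 10). The keratin Krt6a, also near the top of the skin genes, has a near-identical copy and its level is uncertain.

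Summed over the 26 keratinocyte genes, skin 18, 19 and 20 read 4143, 1954 and 3475 CPM and lung libraries 29.0 to 43.5 CPM. Wild-type skin read 71.4 and 162 CPM. Krt8, a keratin of simple epithelia counted in the lung epithelium list, followed the epidermal genes with 253, 239.7 and 421 CPM in skin and 4.13 to 16.2 CPM in lung (4.86 ± 0.82, adjusted p = 0.00192). Calls of keratinocyte genes numbered 9 without skin 19 and 20 and 17 without lung 7. The part of keratinocytes in the skin genes below was not tested.

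Skeletal muscle genes also marked the skin cultures, with 9 of 27 tested higher in skin, none higher in lung and a median log2 difference of 6.02 (5.995 with bounds). Dorsal mouse skin carries a sheet of striated muscle, the panniculus carnosus. Mylpf, the regulatory light chain of fast fibres (chromosome 7, 127208890-127214298), read 118, 93.3 and 159 CPM in skin and 0 counts in lung, at least 3229-fold (adjusted p = 0.000659). Myod1, the master factor of myoblasts, read 33.5, 10.6 and 20.6 CPM against 0 counts (at least 577-fold, adjusted p = 0.0053). Ttn, encoding titin, read 58.7, 4.54 and 18.3 CPM against 0 counts (at least 726-fold, adjusted p = 0.00112), with a fitted log2 value of 12.09 that was 10.83 without skin 18. The summed list is less clear-cut than these genes: 896 to 1437 CPM in skin, 41.3 to 118 CPM in lung 8, 9 and 10, and 861 CPM in lung 7. Leaving out 1 library moved the number called from 5 to 12. It was 12 without lung 7 and 4 without skin 19 and 20.

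Other protein-coding genes with the smallest p toward skin belong to no single list. Prl2c3, a proliferin of the prolactin family, read 39.0, 40.9 and 81.1 CPM in skin and 0 counts in lung, at least 1317-fold (adjusted p = 1.85e-05). Its near-identical neighbour Prl2c2 behaved likewise, and reads of the pair may be split between them. Tnc (chromosome 4, 63959785-64047015), encoding the matrix protein tenascin C, read 6412, 7139 and 7613 CPM in skin and 352, 427, 238 and 1010.1 CPM in lung (3.80 ± 0.47, adjusted p = 0.000173). Even lung 10, the highest of the 4, lay far under the lowest skin library. Ass1, argininosuccinate synthase of the urea cycle, read 999.7, 695 and 740.2 CPM in skin and 14.5 to 49.2 CPM in lung (4.71 ± 0.57, adjusted p = 0.000162). Rgs16, a brake on G protein signalling, read 219 to 245 CPM in skin and 9.16 to 14.7 CPM in lung (4.23 ± 0.54, adjusted p = 0.000219). Gldn, encoding gliomedin, read 8.84 to 14.8 CPM in skin and 0 counts in lung, at least 331-fold (adjusted p = 0.000364). The membrane protein gene Lrrc15 (8.39 ± 1.20, adjusted p = 0.000489) and the growth factor receptor regulator Lrig1 (2.89 ± 0.43, adjusted p = 0.000659) were higher in all 3 skin libraries than in any lung library. Serinc2, encoding a protein of serine incorporation, read 113 to 132 CPM in skin and 3.31 to 16.9 CPM in lung (3.96 ± 0.58, adjusted p = 0.000642, and 4.66 without lung 7). The rule also named Tnfrsf23, which encodes a decoy receptor.

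The lung cultures were marked by macrophage genes. Of 26 macrophage and leukocyte genes, 21 were higher in lung and none in skin, all 26 values pointed to lung, and the median log2 difference was -6.65. Summed, the list stood at 9656, 33501, 27240 and 28484 CPM in lung 7, 8, 9 and 10 and at 160.1 to 223 CPM in skin. Lyz2 (chromosome 10, 117277331-117282321), the lysozyme of macrophages, read 5009.7, 17186, 14309 and 15214 CPM in lung and 62.8, 80.3 and 42.8 CPM in skin (-7.70 ± 0.78, adjusted p = 3.4e-05), though it has a close copy in Lyz1. Cd68, a lysosomal membrane protein of macrophages, read 268, 746, 687 and 728 CPM in lung and 3.81 to 9.39 CPM in skin (-6.58 ± 0.57, adjusted p = 1.85e-05). Lung 7 held the lowest level of each among lung libraries, and lay above every skin library. Mpeg1, a pore-forming protein of phagocytes, read 954 to 3568 CPM in lung and 4.40 to 9.19 CPM in skin (-8.40 ± 0.77), and the integrin chain Itgb2 308 to 759.6 and 1.67 to 6.81 CPM (-7.01 ± 0.66). Both had an adjusted p of 1.85e-05.

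Receptors and signalling genes of myeloid cells were among the smallest p-values of the whole comparison. The complement receptor gene C5ar1 read 104 to 508 CPM in lung and 0.1 to 0.577 CPM in skin (-9.84 ± 0.84, adjusted p = 1.85e-05, and -9.23 without skin 18). The formyl peptide receptor gene Fpr1 had 0 counts in skin and read 18.1 to 97.5 CPM in lung, at least 1221-fold lower in skin (adjusted p = 1.85e-05). Dock2, a Rac activator of leukocytes, read 60.5 to 147 CPM in lung and at most 0.144 CPM in skin (-10.31 ± 0.92, adjusted p = 1.85e-05, and -9.45 without skin 18). Fcgr1, the high-affinity IgG receptor, had 1 count in skin (0.0614 CPM in skin 19) and read 29.4 to 76.0 CPM in lung, a ratio of 3330.5 with a counting interval of 597 to 131575 (adjusted p = 2.17e-05, log2 -10.38 without skin 18 and -13.08 without skin 19). Apoe, the lipid carrier made by macrophages and other cells, read 3716, 18357, 5919 and 6553 CPM in lung and 14.4 to 21.4 CPM in skin (-8.92 ± 0.81, adjusted p = 1.85e-05, and -8.24 without lung 8, the highest). Tgm2, tissue transglutaminase, read 590.3 to 1134 CPM in lung and 11.0 to 13.9 CPM in skin (-6.04 ± 0.54, adjusted p = 1.85e-05). The rule also named Pld4, Ly86, Mcemp1, Tbxas1 and Pik3cg, which are known from myeloid cells.

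Of 16 tested genes of alveolar macrophages, 5 were higher in lung: Itgax, Atp6v0d2, Marco, Chil3 and Msr1. Msr1 lost its call without skin 19 (adjusted p = 0.063) and stood at -5.61 without skin 18, and Chil3 at -12.86 without lung 10, from -4.11 and -14.48. Itgax, encoding CD11c, read 32.8, 82.5, 85.2 and 103 CPM in lung and 1.40 to 3.44 CPM in skin (-4.83 ± 0.67, adjusted p = 0.000388). Marco, a scavenger receptor, had 0 counts in skin but spread widely in lung with 0.182, 58.8, 51.3 and 288 CPM (adjusted p = 0.00427, fitted log2 -13.96, and -12.53 without lung 10). At group means it was at least 1992-fold lower in skin, yet lung 7 had next to none, and Marco was not called with the 7 Rel-null libraries alone (0.0598). The list's median was -1.36. The calls were 16 for macrophage and leukocyte genes and 1 for alveolar macrophage genes without skin 19 and 20.

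Promoters of 3 macrophage genes are shown because the list moved together and the PU box, the core bound by the myeloid factor PU.1, was searched in it. Each run is the 250 bases before the RefSeq start (GRCm38.p6), 5′ to 3′ on the gene's strand, with capitals marking the match to GAGGAA or, on the other strand, TTCCTC. Cd68 lies at chr11:69666171-69666420 (minus strand), Fcgr1 at chr3:96293970-96294219 (minus strand) and Ctss, the cathepsin gene described with the lysosomal genes, at chr3:95526536-95526785 (plus strand).
Cd68: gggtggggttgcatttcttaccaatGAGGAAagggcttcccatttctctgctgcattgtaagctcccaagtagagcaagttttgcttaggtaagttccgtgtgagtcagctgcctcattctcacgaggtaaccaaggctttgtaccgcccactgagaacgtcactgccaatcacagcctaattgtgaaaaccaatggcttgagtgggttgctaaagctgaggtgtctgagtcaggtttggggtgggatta
Fcgr1: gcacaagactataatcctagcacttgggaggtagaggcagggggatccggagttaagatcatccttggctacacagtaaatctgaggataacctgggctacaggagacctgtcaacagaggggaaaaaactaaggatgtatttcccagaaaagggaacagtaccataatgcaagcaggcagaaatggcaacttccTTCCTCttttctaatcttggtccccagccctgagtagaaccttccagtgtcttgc
Ctss: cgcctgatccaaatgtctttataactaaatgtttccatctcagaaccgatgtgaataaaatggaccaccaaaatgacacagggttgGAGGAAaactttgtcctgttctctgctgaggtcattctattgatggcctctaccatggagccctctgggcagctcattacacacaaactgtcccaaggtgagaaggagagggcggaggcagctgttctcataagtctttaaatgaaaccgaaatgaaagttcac
Of the 26 tested macrophage and leukocyte genes 18 had a window, and 11 of these (61.1%) held the letters, against 23.1% of 27025 promoters of the same length. The E-box CAGCTG, the core read by myogenic factors such as MyoD, was in 7 of 20 windows of skeletal muscle genes (35.0%) and in 12.8% of all. The palindrome GCCNNNGGC of AP-2 factors was in 1 of 10 windows of keratinocyte genes (10.0%) and in 13.6% of all. A match gives letters only, not a bound site.

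Genes of other lung cells were uneven between libraries. Of 10 mesothelial genes, 4 were higher in lung (Nkain4, Wt1, Upk3b and Lrrn4), with a median of -6.03. Nkain4 read 57.9, 37.4, 13.1 and 15.5 CPM in lung and at most 0.184 CPM in skin (-8.20 ± 1.27, adjusted p = 0.000976, from -7.49 without skin 18 to -8.94 without skin 19). Upk3b, a uroplakin of mesothelium, had 0 counts in skin and read 14.1, 129, 109 and 2.14 CPM in lung (at least 1274-fold lower in skin, adjusted p = 0.0374), and its call ended without any 1 skin library or lung 8 or 9 (0.0683 to 0.127). Wt1 and Lrrn4 lost theirs in the same 5 cases (0.0703 to 0.114 and 0.0742 to 0.144), and Wt1 stood at -8.82 without lung 9 and Lrrn4 at -11.66 without lung 8, from -9.46 and -12.48. The summed mesothelial list was 58.0 to 419 CPM in lung and 17.2 to 49.2 CPM in skin. Of 18 lung epithelial genes, Krt8, Krt18 and Pdpn were higher in skin, and Napsa and Sftpc in lung. Sftpc, surfactant protein C of alveolar type 2 cells, read 9.10, 14.1, 0 and 18.0 CPM in lung 7 to 10 and 0 counts in skin (adjusted p = 0.0432), a call that ended without any 1 skin library or lung 8 or 10 (0.0777 to 0.143). Krt18 (4.23, adjusted p = 0.0358) lost its call without any 1 of the 3 skin libraries or lung 8, 9 or 10 (0.077 to 0.123), and Napsa (-5.41, adjusted p = 0.033) without skin 19 or 20 or lung 8, 9 or 10 (0.0639 to 0.145), with -6.52 without skin 19 and -4.77 without skin 18. The list's median was -1.54, or -0.91 with bounds.

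Of 17 endothelial genes only Emcn was called, toward lung, with a median of -3.50 and summed levels of 67.9 to 147 CPM in lung against 19.1 to 38.5 CPM in skin. The Emcn call (-9.71, adjusted p = 0.0398) ended without any 1 library but lung 7 (0.0637 to 0.133), and without lung 7, its highest library, the value was -8.65. Ednrb, the endothelin B receptor, counted here with Schwann cell and melanocyte genes, read 212, 681, 348 and 407 CPM in lung and 0, 0.307 and 0 CPM in skin (-12.08 ± 1.70, adjusted p = 0.000407, -11.22 without skin 18 and -16.03 without skin 19). With Mbp it made 2 of 13 genes of that list higher in lung (median -0.87), though Mbp lost its call without skin 19 or 20 or lung 8 or 10 (0.0636 to 0.139). Pericyte genes gave 1 of 9 in each direction, Postn toward skin and Kcnj8 toward lung (median -0.31). Among 8 adipocyte genes Cebpa was higher in lung (median -0.90). Kcnj8 and Cebpa lost their calls without any 1 of the 3 skin libraries or lung 8, 9 or 10 (0.0641 to 0.143 and 0.062 to 0.151), and Kcnj8 stood at -10.03 without lung 10, from -11.71. Lymphocyte genes were nearly unread: 2 of 15 passed the filter, neither was called, and their median was -4.96 (-3.46 with bounds).

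**Figure D2:**
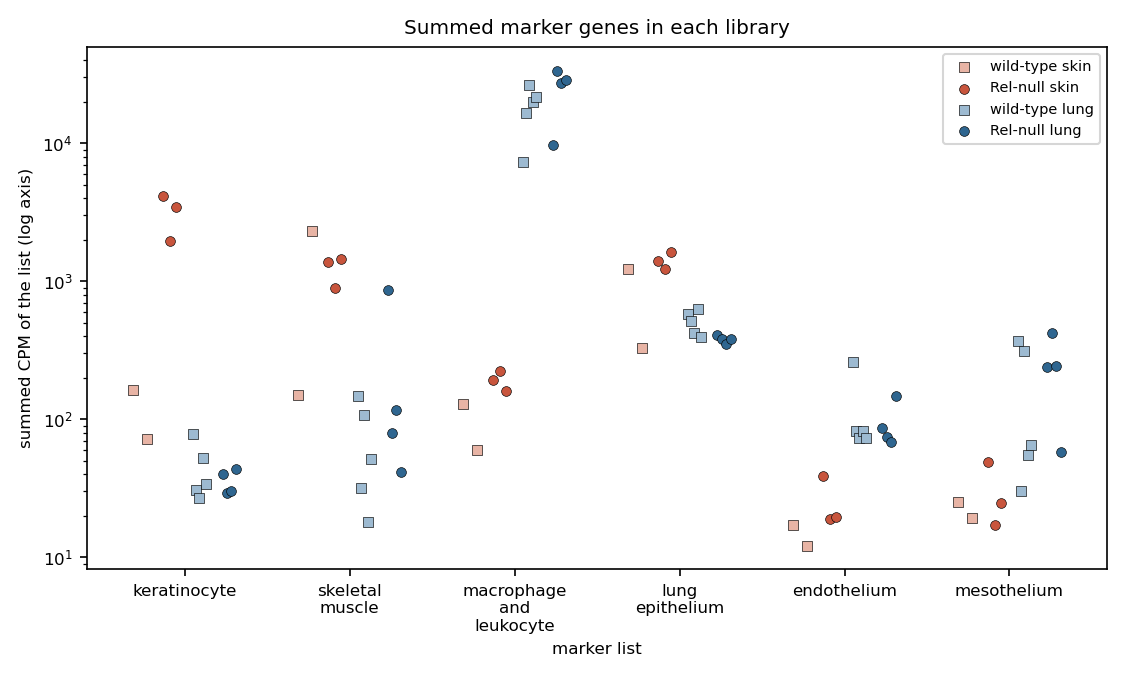
Points give the summed CPM of each marker list (log axis) in each of the 14 libraries, by tissue and genotype. Keratinocyte genes stand at 1954 to 4143 CPM in Rel-null skin and at 71.4 and 162 CPM in wild-type skin, macrophage genes at 9656 CPM or more in Rel-null lung and at most 223 CPM in Rel-null skin, and 1 Rel-null lung library (number 7) lies at 861 CPM of muscle genes among the skin libraries.

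Genes reported for dermal or lung fibroblasts had few called members, though the summed levels of both lists did not overlap between tissues. The dermal list summed to 2580 to 3352 CPM in skin and 612 to 1444 CPM in lung. The lung list summed to 295 to 839 CPM in skin and 1057 to 2591 CPM in lung. Of 17 dermal fibroblast genes, 2 were higher in skin (Lrig1, above, and Crabp1) and none in lung, with a median of 0.94. Crabp1, a retinoic acid binding protein of the dermal papilla and upper dermis, read 1298, 525 and 661 CPM in skin and 14.5, 3.29, 4.24 and 5.30 CPM in lung (6.92 ± 1.17, adjusted p = 0.00191, and 7.62 without lung 7). Of 17 lung fibroblast genes, Vegfd and Bmper were higher in lung and Rarres2 in skin, with a median of -2.14. The Bmper call (-2.55) ended without skin 18 or 19 or lung 10 (0.0528 to 0.102). Vegfd, a lymphatic growth factor, read 329 to 783 CPM in lung and 46.9 to 102 CPM in skin (-2.87 ± 0.41, adjusted p = 0.00052). Rarres2, encoding chemerin, went against its list with 103, 271 and 238 CPM in skin and 6.86 to 14.5 CPM in lung (4.39 ± 0.84, adjusted p = 0.0049, but 0.113 without skin 19 and 20). Thy1 read 724 to 1171 CPM in skin and 102 to 274 CPM in lung (2.49 ± 0.41, adjusted p = 0.00169).

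Matrix genes were called in both directions, in counts to be set against the shares over all tested genes. Those shares were 1.82% toward skin and 3.23% toward lung. Fibrillar collagens gave 1 call in each direction among 10 (median -0.85). Col3a1 (chromosome 1, 45311538-45349706), the collagen III chain, read 164, 1430.3 and 661 CPM in skin and 5785, 22490.1, 14169.6 and 36968 CPM in lung (-4.72 ± 1.00, adjusted p = 0.0102). The 2 tissues did not overlap, with skin 18 the lowest and lung 10 the highest. Without skin 19 the value was -5.59, and the call was lost without skin 18 (adjusted p = 0.0501), skin 20 (0.0744) or skin 19 and 20 (0.0631). Col5a3, a minor fibrillar chain, read 71.8, 95.1 and 52.0 CPM in skin and 0.0607, 2.19, 0.768 and 10.9 CPM in lung (4.39 ± 0.96, adjusted p = 0.0126, and 6.14 without lung 10). Its call ended without skin 19 and 20 (4.37, adjusted p = 0.0755) and in a fit of the 7 Rel-null libraries alone (0.0727). Among 29 other collagens 2 were higher in skin and 2 in lung (median 0.87). Col12a1, which coats fibrils under tension, read 919, 1809 and 1704 CPM in skin and 101 to 370.3 CPM in lung (2.85 ± 0.61, adjusted p = 0.0106, but 2.17 and 0.206 without skin 19 and 20, when no collagen of this list was called toward skin). Col14a1, the related chain, went the other way with 4.65, 22.7 and 7.57 CPM in skin and 131 to 374 CPM in lung (-4.45 ± 0.75, adjusted p = 0.00197, and -5.39 without skin 19). Col25a1 toward skin (9.71) and Col4a6 toward lung (-6.24) were the other calls. Both were lost without any 1 skin library or lung 8 or 9, and Col25a1 also without lung 10 (0.0874 to 0.127 and 0.055 to 0.15), and Col4a6 stood at -5.60 without skin 18 and -7.75 without skin 19.

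Of 50 glycoproteins and proteoglycans, 3 were higher in skin (Tnc, Thbs2 and Postn) and 7 in lung (Podn, Sparcl1, Ogn, Efemp1, Eln, Tnxb and Nid2), with a median of -0.08. Thbs2, thrombospondin 2, read 4405, 7532 and 5515 CPM in skin and 255, 813, 552 and 950.2 CPM in lung (3.18 ± 0.54, adjusted p = 0.00198). Postn, periostin, was uneven in skin at 184, 2059 and 838 CPM, against 42.9 to 139 CPM in lung (3.58 ± 0.76, adjusted p = 0.0109), and lost its call without skin 19 (2.57, adjusted p = 0.0779). On the lung side, Podn, encoding the proteoglycan podocan, read 125 to 522 CPM in lung and 4.04 to 10.0 CPM in skin (-5.47 ± 0.75, adjusted p = 0.000361). Ogn, osteoglycin, read 253 to 771 CPM in lung and 6.92, 40.0 and 15.6 CPM in skin (-4.61 ± 0.78, adjusted p = 0.00198, and -5.50 without skin 19). Sparcl1, a relative of osteonectin, read 28.6, 167, 85.2 and 479.8 CPM in lung and at most 0.368 CPM in skin (-9.83 ± 1.35, adjusted p = 0.000361, from -8.81 without lung 10 to -10.47 without skin 19, and -9.09 without skin 18). Elastin, chosen after its values were seen, read 353, 409, 126 and 505 CPM in lung and 0.0669, 2.95 and 0.793 CPM in skin (Eln, -8.14 ± 1.79, adjusted p = 0.0128). Its value was -9.86 without skin 19, and its call ended without skin 18 (0.0594) or skin 20 (0.0818).

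Enzymes that cut, modify or cross-link the matrix were called in both directions, 6 of 44 toward skin and 5 toward lung (median 0.34). Plod2, the lysyl hydroxylase of collagen telopeptides, read 245, 357, 480.5 and 480.1 CPM in lung and 14.5, 55.5 and 52.1 CPM in skin (-3.26 ± 0.43, adjusted p = 0.000286). Plau, the urokinase plasminogen activator, read 346, 250.5 and 456 CPM in skin and 55.0 to 128 CPM in lung (1.96 ± 0.39, adjusted p = 0.00679, but 0.0851 without skin 19 and 20). P4ha2 toward skin and Tgm2 and Mmp8 toward lung were also called, Mmp8 not without any 1 skin library (0.0509 to 0.0557). No member was called toward skin without skin 19 and 20. Of 20 contractile genes none was higher in skin and 2 were higher in lung (median -0.34). Mylk, myosin light chain kinase, read 664, 246, 217 and 423 CPM in lung and 10.7 to 18.7 CPM in skin (-4.75 ± 0.62, adjusted p = 0.000254). Myh11, the smooth muscle heavy chain, read 30.6, 5.02, 6.5 and 53.7 CPM in lung and 0, 0.184 and 0.649 CPM in skin (-6.51 ± 1.63, adjusted p = 0.0279), and lost its call without any 1 skin library or lung 10 (0.0572 to 0.119). The summed contractile list was 20852 CPM in lung 7, against 5080.3 to 7385 CPM in the other lung libraries and 9356 to 9542 CPM in skin. Without lung 7, 3 contractile genes were called toward skin.

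Genes of BMP ligands were among those higher in lung. Of 43 genes of TGF-beta and BMP signalling, 6 were higher in skin (among them Fst, Ltbp2, Id4, Inhbb and Inhba) and 4 in lung (Bmp4, Bmp5, Gdf6 and Bmp3), with a median of -0.20. Bmp4 (chromosome 14, 46383520-46390669) had 0 counts in skin and read 51.8, 11.6, 18.8 and 26.4 CPM in lung, at least 511-fold lower in skin (adjusted p = 0.000123). Bmp5 read 8.01, 24.4, 16.3 and 67.1 CPM in lung and 0, 0.123 and 0.144 CPM in skin (-8.46 ± 1.10, adjusted p = 0.000232, -7.65 without skin 18 and -7.60 without lung 10). Fst, encoding follistatin, which binds activins and BMPs, read 205, 171 and 111 CPM in skin and 25.3 to 32.9 CPM in lung (2.52 ± 0.45, adjusted p = 0.00295). Inhba and Inhbb encode activin subunits and Ltbp2 a latent TGF-beta binding protein that sits on microfibrils. Ltbp2 read 879.7, 2012 and 1663 CPM in skin and 124 to 323 CPM in lung (2.79 ± 0.58, adjusted p = 0.00909, but 0.218 without skin 19 and 20). Without skin 19 and 20 the list had 1 call toward skin and 3 toward lung, and the Gdf6 call ended without skin 18 (adjusted p = 0.0504).

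Wnt modulators and growth factors were called in both directions as well. Over all tested genes 1.82% were called toward skin and 3.23% toward lung. Of 27 Wnt genes 2 were higher in skin (Dkk2 and Wnt7a) and 3 in lung (Rspo3, Sfrp1 and Ccn5), with a median of -0.14. The calls of Wnt7a and Ccn5 ended, for Wnt7a without any 1 of the 3 skin libraries or lung 8, 9 or 10 (0.0604 to 0.175, with 9.41 without skin 20 against 10.34) and for Ccn5 without skin 20 (0.0729). Rspo3, an R-spondin that strengthens Wnt signals, read 69.3, 169, 192 and 104 CPM in lung and 5.42 to 14.7 CPM in skin (-3.84 ± 0.51, adjusted p = 0.00028). Sfrp1, a secreted Wnt antagonist, read 932, 3007, 924 and 3795 CPM in lung and 23.0, 159 and 89.2 CPM in skin (-4.58 ± 0.81, adjusted p = 0.00282, and -5.27 without skin 19). Dkk2, another antagonist, read 229, 266 and 100.2 CPM in skin and 13.5 to 41.6 CPM in lung (3.21 ± 0.58, adjusted p = 0.00324). Of 46 growth factors and receptors, Fgfr1 and Fgf7 were higher in skin and Igf1, Igfbp4, Vegfd and Nrp1 in lung, with a median of 0.16. Igf1 (chromosome 10, 87858265-87937042), insulin-like growth factor 1, read 208, 529, 448 and 877 CPM in lung and 5.32, 21.9 and 8.87 CPM in skin (-5.43 ± 0.58, adjusted p = 6e-05, and -6.19 without skin 19). Igfbp4, its binding protein, read 887 to 4565 CPM in lung and 18.7 to 67.4 CPM in skin (-5.81 ± 0.82, adjusted p = 0.000423). Fgfr1 read 412 to 629 CPM in skin and 181 to 228 CPM in lung (1.36 ± 0.25, adjusted p = 0.00324, but 0.199 without skin 19 and 20).

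Several chemokines that draw neutrophils and monocytes were higher in skin. Of 40 tested chemokines and cytokines, 9 were higher in skin (Cxcl5, Lif, Ccl7, Ccl2, Ccl8, Ccl11, Cxcl3, Csf3 and Cxcl1) and 4 in lung (Ccl9, Cxcl13, Ccl4 and Tnfsf13b), with a median of 1.46, or 1.25 with bounds. Cxcl5, a neutrophil attractant, read 858, 3393 and 2449 CPM in skin and 13.1, 47.2, 48.2 and 83.7 CPM in lung (5.54 ± 0.99, adjusted p = 0.00295). Ccl2, the main monocyte attractant, read 1338, 1957 and 1361 CPM in skin and 59.6, 57.7, 220.4 and 41.3 CPM in lung (4.03 ± 0.82, adjusted p = 0.00731, and 4.87 without lung 9). Its neighbour Ccl7 read 736 to 1009.6 CPM in skin and 36.4 to 211 CPM in lung (3.12 ± 0.57, adjusted p = 0.00324, and 3.87 without lung 9). Lif, leukaemia inhibitory factor, read 101, 229 and 248 CPM in skin and 0.667, 4.75, 3.70 and 4.89 CPM in lung (5.77 ± 1.05, adjusted p = 0.00323). Ccl9, made by macrophages, read 86.0 to 506 CPM in lung and 4.25 to 12.7 CPM in skin (-5.13 ± 0.79, adjusted p = 0.000981). With skin 18 as the lone skin library, without skin 19 and 20, 1 gene toward skin and none toward lung was called, while the named genes kept their direction. The values were then 4.16 for Cxcl5 (adjusted p = 0.0635), 3.82 for Ccl2 (0.0647), 2.94 for Ccl7 (0.0502), -4.56 for Ccl9 (0.0903) and 4.85 for Lif (0.0498).

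No member of the NF-kappaB family and its regulators was called among 21 (median 0.26). Nfkbia, the inhibitor that NF-kappaB itself induces, read 187, 151 and 138 CPM in skin and 68.7, 75.5, 112 and 55.9 CPM in lung (1.02 ± 0.60, adjusted p = 0.389), and Nfkb1 92.3 to 103 and 54.2 to 82.3 CPM (0.40 ± 0.34, adjusted p = 0.612). For both, the lowest skin library lay above the highest lung library. Such non-overlap was found for 5 of the 21 members toward skin and 1 toward lung. Over all tested genes it was found for 11.6% toward skin and 8.54% toward lung. Rel itself had a value of 1.26 ± 1.36 (adjusted p = 0.729), which was -5.97 without skin 19 and 20.

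Complement and lysosomal genes were called mostly toward lung. Some of them are counted in the macrophage lists as well. These are C1qa, C1qb, C1qc and Ctss among macrophage and leukocyte genes, and Atp6v0d2 and Ctsk among alveolar macrophage genes. Of 20 complement genes 8 were higher in lung (among them C5ar1, Cfp, C1qa, C1qb, C1qc, C3ar1 and C4b) and 1 in skin, with a median of -4.24. C1qa, C1qb and C1qc, the 3 chains of the recognition protein, read 183 to 848, 328 to 1423 and 336 to 1067 CPM in lung. In skin they read at most 1.66, 6.75 and 1.41 CPM. Their log2 values were -9.71 ± 1.24, -8.50 ± 1.28 and -10.18 ± 1.31, with adjusted p of 0.000204, 0.000793 and 0.000219. Without skin 18 they were -8.99, -10.62 and -9.45, and without skin 19 C1qa and C1qc stood at -11.48 and -11.35. Cfp, properdin, read 198 to 487 CPM in lung and 6.95, 1.47 and 0.793 CPM in skin (-6.90 ± 0.79, adjusted p = 8.84e-05, and -8.33 without skin 18). The exception was Clu, described below with the genotypes.

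Of 25 lysosomal genes, 10 were higher in lung and none in skin (median -1.16). Ctss, a cathepsin of antigen-presenting cells, read 505, 1491, 1337 and 1562 CPM in lung and 10.3 to 25.8 CPM in skin (-6.25 ± 0.63, adjusted p = 3.4e-05). Ctsb, a cathepsin of most cells, read 4046, 12132, 11354 and 9713 CPM in lung and 1384 to 1528 CPM in skin (-2.67 ± 0.46, adjusted p = 0.00203, but 0.14 without skin 19 and 20). The acid lipase gene Lipa read 475 to 1691 CPM in lung and 46.8 to 148 CPM in skin (-3.35 ± 0.50, adjusted p = 0.000771). Leaving out 1 library, 4 to 15 lysosomal genes were called, the most without lung 7. In each of these genes lung 7, with the lowest macrophage sum of the 4 lung libraries, was also the lowest. The part of macrophages in these lists was not tested. Of 36 interferon-stimulated genes Psmb8, Bst2 and Irf9 were higher in lung and none in skin (median -0.85), and Irf9 lost its call without skin 19 or 20 or lung 8 (0.0557 to 0.132). Psmb8, an immunoproteasome subunit, read 66.3 to 122 CPM in lung and 5.77 to 10.3 CPM in skin (-3.33 ± 0.44, adjusted p = 0.000264), and Bst2, tetherin, 42.4 to 147 and 10.2 to 18.7 CPM (-2.51 ± 0.41, adjusted p = 0.00161). None of 7 MHC class II genes was called (median -1.58).

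Genes of growth and metabolism were called in small numbers that moved with the libraries used. Calls toward skin without lung 7 were 3 of 36 proliferation genes (from 1), 5 of 20 p53 and senescence genes (from 1) and 8 of 27 cholesterol and fatty acid genes (from 4). Without the 4 libraries with most genes at 0 counts they were 6, 4 and 17. Toward lung, glycolysis and hypoxia genes went from 3 to 5 in both cases. Over all tested genes, calls toward skin also rose, from 299 of 16408 to 507 of 16443 without lung 7. Without the 4 libraries they were 918 of 17485. Calls toward lung over all tested genes went from 530 to 816 and 1253. Of 36 proliferation genes 33 had values toward skin (median 0.71), but only Ccne1, cyclin E1, was called (1.66 ± 0.46, adjusted p = 0.0468), and its call ended without any 1 of the 3 skin libraries or lung 8, 9 or 10 (0.0639 to 0.17). Among 20 p53 and senescence genes (median 0.51) Plk2 was higher in skin, at 410.5, 249 and 429 CPM against 51.0 to 101 CPM in lung (2.21 ± 0.45, adjusted p = 0.00727), and Sesn1 in lung (-2.65 ± 0.60, adjusted p = 0.0157). The Sesn1 call ended without any 1 skin library or lung 8 (0.055 to 0.0846). Cholesterol and fatty acid synthesis genes had 26 of 27 values toward skin (median 1.23) and 4 calls, Sc5d, Elovl6, Lss and Hsd17b7. Sc5d, a late sterol desaturase, read 127, 169 and 150.3 CPM in skin and 38.0 to 71.1 CPM in lung (1.34 ± 0.27, adjusted p = 0.00669). Elovl6, a fatty acid elongase, read 53.9, 107 and 75.0 CPM in skin and 9.08 to 17.5 CPM in lung (2.55 ± 0.51, adjusted p = 0.00685). Lss lost its call without skin 19 or lung 8 or 9 (0.0585 to 0.118), and Hsd17b7 without skin 19 or 20 or lung 8, 9 or 10 (0.0508 to 0.149). Without skin 19 and 20 none of the 4 was called (Sc5d 0.202, Elovl6 0.207). Of 25 glycolysis and hypoxia genes Pfkl, Aldoc and Pdk1 were higher in lung and none in skin (median -0.31). Pfkl, the liver phosphofructokinase, read 219 to 371 CPM in lung and 111 to 158 CPM in skin (-1.12 ± 0.26, adjusted p = 0.0184), and lost its call without skin 18, skin 20 or lung 10 (0.0528 to 0.13). Aldoc and Pdk1 lost theirs without any 1 of the 3 skin libraries or lung 8, 9 or 10 (0.066 to 0.124 and 0.0577 to 0.149).

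**Figure D3:**
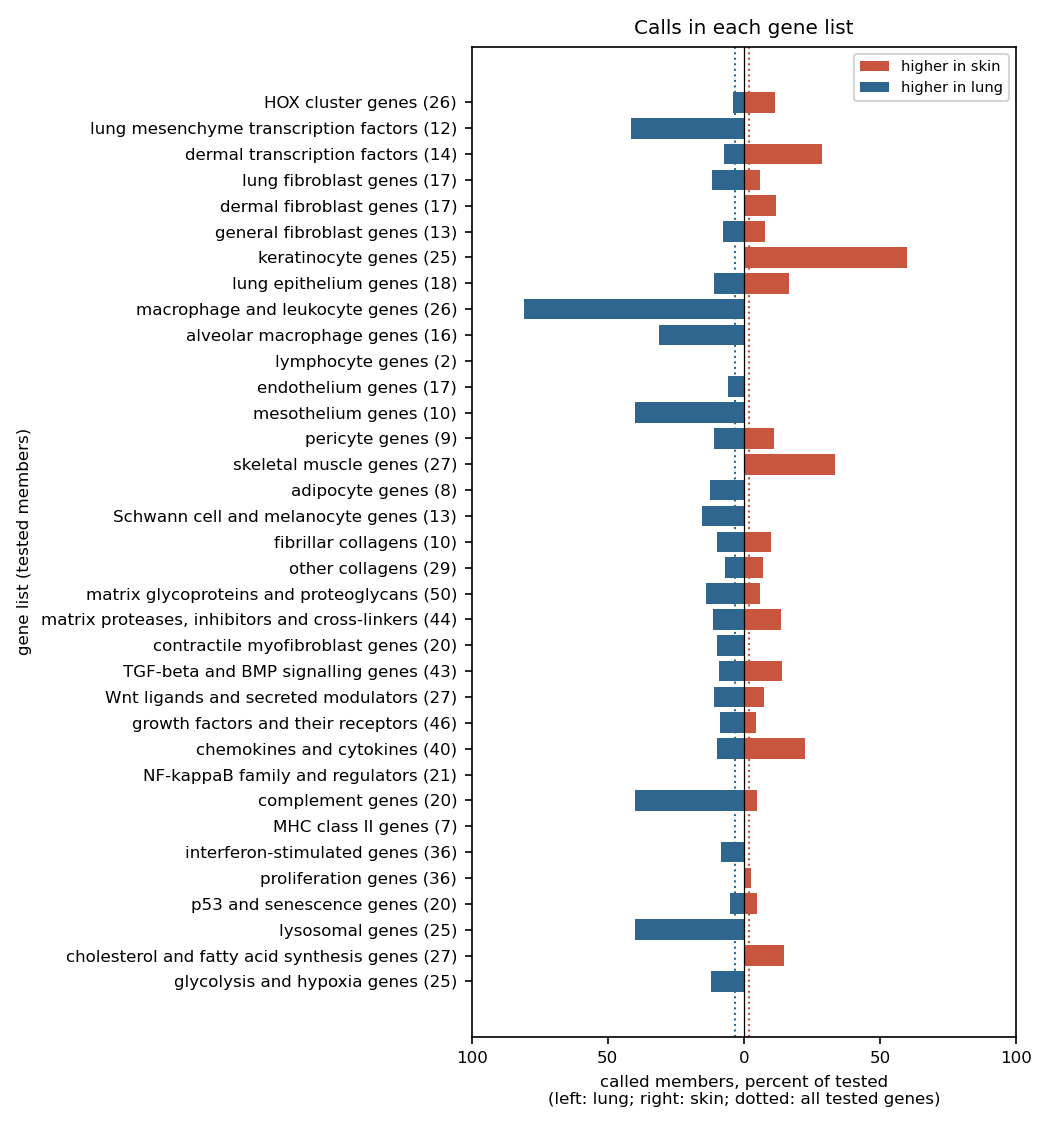
Bars give, for each of 35 gene lists, the percent of tested members called higher in Rel-null skin (red, right) or in Rel-null lung (blue, left), with the number tested in brackets. Dotted lines mark the shares over all tested genes, 1.82% toward skin and 3.23% toward lung, and macrophage genes toward lung (21 of 26) and keratinocyte genes toward skin (15 of 25) extend farthest.

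Skin against lung in wild-type cultures was the same question asked of 7 other libraries in the same fit. There 487 genes were called (2.97%), 148 higher in skin (0.902%) and 339 in lung (2.07%), with skin resting on 2 libraries. Of the 829 genes of Rel-null cultures, 360 were also called in wild type in the same direction, which is 43.4% of the 829 and 73.9% of the 487. By tissue these were 99 of the 299 toward skin and 261 of the 530 toward lung. The sign was shared by 787 of the 829 (94.9%), and by 64.4% of all tested genes. Positional genes were among those called in both: in wild type the log2 value of Hoxc9 was 12.24 (adjusted p = 0.00196), of Hoxc8 10.81 (0.000624), of Zic1 9.27 (0.00344), of Tcf21 -8.87 (0.00626) and of Twist2 4.83 (0.0122). Tnc (1.74, adjusted p = 0.0511) and Krt17 (2.04, adjusted p = 0.481) were not called in wild type, and Lif had a value near 0 there (0.20).

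No gene passed the test of the difference between the tissue contrasts of both genotypes with edgeR (smallest adjusted p = 0.101), and none is shown to be particular to Rel-null cultures by it. An unadjusted p under 0.05 was found for 766 genes (4.67%), DESeq2 called 80 and 20 genes by direction, and limma-voom 172 and 2. Without wild-type skin 22, the shallowest library at 2663437 counts, edgeR called 357 and 13, with wild-type skin then a lone library. Where lung of both genotypes is at 0 counts, as for Krt5, that test gives no usable value. Clu, chosen after its values were seen, was the 1 gene called in opposite directions. This secreted chaperone read 2961, 1987 and 3475 CPM in Rel-null skin and 174, 420.2, 201 and 769 CPM in Rel-null lung (2.84 ± 0.61, adjusted p = 0.0112). In wild type it read 64.8 and 8.96 CPM in skin and 274 to 699.5 CPM in lung (-3.56, adjusted p = 0.0245). All 3 Rel-null skin libraries lay above every other library, skin 19 and 20 with their Rel counts included. The difference of the contrasts was 6.41 (adjusted p = 0.101), and the Rel-null call ended without skin 19 and 20 (2.92, adjusted p = 0.0743). Plau followed with 1.96 in Rel-null and -1.42 in wild-type cultures (difference 3.38, adjusted p = 0.166).

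An unadjusted p under 0.05 for the difference of the contrasts, found for 4.67% of all tested genes, was found for 11 of 25 keratinocyte genes, but no member of any list passed after adjustment. Medians of the keratinocyte list were 8.84 in Rel-null and 2.04 in wild-type cultures, with 15 and 5 genes called toward skin. Adipocyte genes had 4 of 8 such members (medians -0.90 and 0.80), alveolar macrophage genes 6 of 16 (-1.36 and -5.50), macrophage and leukocyte genes 6 of 26 (-6.65 and -8.58) and chemokines and cytokines 7 of 40 (1.46 and -1.76). Complement genes had 2 of 20 (-4.24 and -4.75), HOX genes 0 of 26 (-0.21 and -0.82) and lung mesenchyme factors 0 of 12 (-4.72 and -4.08). The wild-type medians rest on 2 unlike skin libraries, the shallow number 22 and number 11, with 8.22% of expressed genes at 0 counts. Summed chemokines and cytokines read 10571 CPM in wild-type skin 11 and 1782 CPM in 22, against 5460 to 11182 CPM in Rel-null skin. Summed adipocyte genes read 3002 and 465 CPM, against 201 to 411 CPM.

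**Figure D4:**
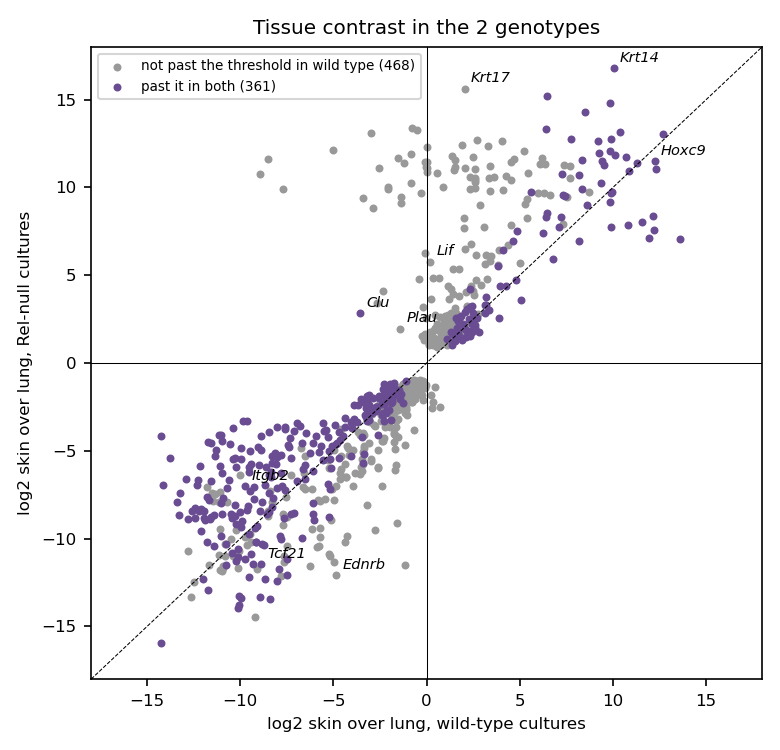
Each point is 1 of the 829 genes called in Rel-null cultures, placed by its log2 skin over lung value in wild-type (horizontal) and Rel-null cultures (vertical), purple where it also passed the threshold in wild type. Most lie at the lower left and upper right, with 787 of 829 of the same sign, and Clu is the purple point in the upper left.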

How the data were processed

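Gene counts of 14 libraries were used as the authors deposited them, 1 whole number per gene and library, with no normalization. STAR 2.4.2a, Trimmomatic 0.33 and FastQC 0.11.2 are listed with the build GRCm38, per the submitters' processing notes. Library preparation was directional, per the labels' protocols. How reads were counted, with which strand setting and gene annotation, is not given in the sources used here. Symbols were found for 48435 of 48795 gene IDs in GENCODE's GRCm38 annotation.

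Groups were taken from the labels. Genes passing filterByExpr (minimum count 10, minimum total 15) were fitted with edgeR 4.0.16 in R 4.3.3: TMM factors, 4 group means over all 14 libraries, quasi-likelihood tests, Benjamini-Hochberg adjustment over 16408 genes and a threshold of 0.05. All 14 libraries share 1 estimate of the spread. DESeq2 1.42.0 and limma 3.58.1 were alternatives. Here limma-voom stands for voom with a quality weight estimated for each library, so that setting changed the weighting of libraries too. CPM are scaled by TMM. The SE after a log2 value is that value's size divided by the square root of the test's F statistic. It was not estimated separately and is rough for genes near 0 counts. A fold against 0 counts is a lower bound at 3 counts over the group, and counting intervals (95%) and floors cover counting error only. In data simulated for this comparison over 16408 genes, the test recovered 2%, 36%, 80% and 94% of 50 genes changed by 1, 2, 4 and 6 on the log2 scale, and called 4 of 16208 unchanged genes. No 2 libraries of a group agreed within sampling noise.

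The genes named are the 15 protein-coding genes of smallest p in each direction with at least 5 CPM in the higher group, up to 5 called members of each of 35 lists, the 2 highest members of lists without calls, the positional genes, and Rel, Rps3a3 and Tpm3-rs7. Eln and Clu were chosen after their values were seen. The comparison, its members and the lists were chosen with earlier results of these data known. Exons of Twist2, Zic1, Tnc, Lrig1, Krt5, Krt8, Ttn, Dock2, Tgm2, Nkain4, Rarres2, Eln, Plod2, Mylk, Bmp4, Bmp5, Fst, Ltbp2, Rspo3, Fgfr1, Ctsb, Psmb8 and Elovl6, among others, overlap a gene on the other strand, so their levels are uncertain. Promoter sequences come from RefSeq. Some members of the lists are counted but not reported by name here. Some genes belong to several lists.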

Additional observations from a re-analysis of the deposited data

Results flagged for a closer look

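Of 129 values checked in the 4 Rel-null lung libraries, 14 held a library far from the other 3, by the gap to its neighbour over the whole range. For independent, normally spread values chance gives about 1 in 20, a rate that need not hold here. For Hoxc8, Hoxc6 and Lamb3 the other 3 libraries were at 0 counts, which fixes the ratio of gap to range at 1. Lung 7 was the low one for Cd68 (268 CPM), Itgb2 (308 CPM), Aldoc (6.19 CPM) and Ccn5 (607 CPM), the high one for Emcn (13.5 CPM), and had 11.5% of expressed genes at 0 counts. Lung 8 was high for Hoxc8 (1.00 CPM) and En1 (9.08 CPM). Lung 9 was high for Tbx15 (6.28 CPM) and Ccl2 (220.4 CPM) and low for Nfkb1 (54.2 CPM). Lung 10 was high for Hoxc6 (0.153 CPM), Lamb3 (0.306 CPM) and Dkk2 (41.6 CPM).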

How the results depend on the processing

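Numbers of genes called depended on the processing more than directions did. In Rel-null cultures, DESeq2 called 649 genes toward skin and 1121 toward lung, limma-voom 2443 and 2058 (54.3% of calls toward skin against 36.1%), and leaving out 1 library 139 to 507 and 271 to 816. Without skin 19 and 20 it was 75 and 334 (18.3% toward skin), and without the 4 libraries with most genes at 0 counts 918 and 1253. The median log2 value of all genes shifted by -0.126 without lung 7 and by -0.114 without skin 19 and 20. In wild-type cultures (148 and 339), no low-count filter gave 260 and 522, DESeq2 328 and 905, and leaving out 1 library 74 to 266 and 171 to 846. Without skin 19 and 20, 97 were called toward skin, without the 4 libraries 275 and 583, and 845 toward lung without wild-type lung 1 and wild-type skin 22, left out together for their Xist counts. The difference between genotypes (0 and 0) gave 27 and 4 with no filter, 80 and 20 with DESeq2, 172 and 2 with limma-voom, 0 to 357 and 0 to 13 without 1 library, 6 and 25 without skin 19 and 20, 26 and 5 without the 4 libraries, and 349 and 16 without wild-type lung 1 and skin 22. Hoxb4, not called, ran from -0.95 without skin 18 to 0.0594 without skin 20 and was 0.56 without skin 19 and 20, and Rel to -5.97 without skin 19 and 20. The cause was not tested. Of 118 named genes called, 62 kept their call under all 24 alternatives. With the 7 Rel-null libraries alone, 18 of the 118 lost it. No paired analysis was possible because the groups share no replicate numbers. At this spread small differences were seldom detectable.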
